A study of Mus musculus with 12 samples.

Results

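Every entry of the deposited expression table whose symbol is that of a protein of the cytosolic ribosome (Rpl, Rplp or Rps followed by a number and, for some, a letter suffix) was taken, which gave 84 of 23235 entries. By symbol, 52 of these belong to the large subunit, the stalk proteins Rplp0, Rplp1 and Rplp2 among them, and 32 to the small subunit. Among the 32, Rps4y2 is annotated as a transcribed processed pseudogene. The names and not the measured values chose the members. Rpsa, Fau and Gnb2l1 also code for cytosolic ribosomal proteins but are named differently, and they are given beside the members.

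The RNA came from mouse oocytes at day 14 that were wild type (WT) or MTR4-null, and nucleus and cytoplasm had been parted by micromanipulation. MTR4 is the RNA helicase that feeds nuclear transcripts to the exosome, and its gene is listed as Skiv2l2. The 4 groups were WT nucleus, WT cytoplasm, MTR4-null nucleus and MTR4-null cytoplasm, with 3 libraries each and 10 nuclei or 10 cytoplasms in each library. For the MTR4-null genotype, the sources used here give no strain, allele or Cre line, and the design text mentions duplicates although each group has 3 labelled libraries. Whether the 3 came from different mice is not stated. The p-values therefore measure only how far these libraries spread, which may be technical.

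Cytosolic ribosomal proteins assemble with ribosomal RNA in the nucleolus, leave the nucleus as parts of the subunits and carry out translation in the cytoplasm. Their mRNAs are short, abundant and stable, and most begin with a run of pyrimidines (the 5' TOP motif) through which mTORC1 and LARP1 control their translation. Many of their introns hold snoRNAs, and the genome holds many processed pseudogenes of them. A growing oocyte makes and stores the ribosomes that the early embryo will use.

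Several results below turn on genes that have a close relative among the members or a near copy elsewhere in the genome, so the sequences that tell such genes apart are shown first. The coding sequences of Rpl36a and Rpl36al, an X-linked gene and its autosomal paralog, are identical at 282 of 321 aligned bases (87.9%). Those of Rps27 and its paralog Rps27l are identical at 194 of 255 (76.1%). The longest stretches without a mismatch are 24 and 11 bases, shorter than the reads of 150 bases. The first 120 coding bases of each follow, from the GENCODE vM21 transcripts, with the bases that differ within the pair in capitals (18 in the first pair and 28 in the second).
Rpl36a: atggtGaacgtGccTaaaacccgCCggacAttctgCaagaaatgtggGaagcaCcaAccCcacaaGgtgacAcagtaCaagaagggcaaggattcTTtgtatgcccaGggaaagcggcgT
Rpl36al: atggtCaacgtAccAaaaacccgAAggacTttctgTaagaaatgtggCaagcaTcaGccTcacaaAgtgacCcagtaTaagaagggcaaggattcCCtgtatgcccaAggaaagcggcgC
Rps27: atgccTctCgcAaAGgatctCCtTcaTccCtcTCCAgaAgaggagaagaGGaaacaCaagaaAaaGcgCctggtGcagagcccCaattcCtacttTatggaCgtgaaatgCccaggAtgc
Rps27l: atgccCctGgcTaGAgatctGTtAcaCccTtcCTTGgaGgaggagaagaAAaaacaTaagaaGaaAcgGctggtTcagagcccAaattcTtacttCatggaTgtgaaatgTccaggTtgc

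In GRCm38 coordinates, Rpl36a lies at chrX:134585654-134588062 on the plus strand and Rpl36al at chr12:69182731-69184083 on the minus strand. Rps27 lies at chr3:90212522-90213651 on the minus strand and Rps27l at chr9:66946086-66949516 on the plus strand. The deposited values rest on the older build mm9, so these positions serve only to identify the genes.

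Before the results, the libraries themselves need a description. Skiv2l2 was at 21.1, 19.4 and 20.2 FPKM across the WT cytoplasms and at 1.04, 0.315 and 0.700 FPKM across the MTR4-null cytoplasms. FPKM counts fragments relative to transcript length and to all mapped fragments of a library. In the nuclei, Skiv2l2 was at 6.06, 2.45 and 5.37 FPKM across WT and at 7.98, 0.182 and 1.12 FPKM in the libraries labelled MTR4-null. The nucleus library labelled MTR4-null replicate 1 thus held more Skiv2l2 than any WT nucleus and goes against its label. Small structured RNAs took 87.5% to 92.4% of the summed FPKM in 5 nuclei, 71.9% in the nucleus library labelled MTR4-null replicate 3, and 4.64% to 19.4% in the cytoplasms. Relative depth, estimated from the smallest values, was 0.127 to 0.399 in the nuclei and 0.527 to 1.54 in the cytoplasms, with WT cytoplasm replicate 1 set to 1, so nuclear values are less precise. Of 14 oocyte markers, 13 or 14 reached 1 FPKM in all 3 libraries of each group. Of 18 granulosa cell markers, 3 or 4 did, and their summed level was 45.5 to 48.7 FPKM in WT cytoplasms and 23.4 to 32.0 FPKM in MTR4-null cytoplasms. Of 12 blood and endothelium markers, 1 or 2 reached 1 FPKM in all 3 libraries of a group and their sum was 7.27 to 20.03 FPKM, while the hemoglobin genes Hbb-b1, Hbb-b2, Hba-a1 and Hba-a2 were listed at 0 in all 12 libraries.

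The ribosomal protein genes were among the well expressed genes of these oocytes. In each group 10 nuclei or cytoplasms were pooled and FPKM is a share of a library, so less RNA per compartment and a larger amount of other RNA cannot be told apart. The members' FPKM summed to 12723, 10987 and 10350 in the WT cytoplasms and to 3837, 2864 and 3970 in the WT nuclei. In the MTR4-null cytoplasms the sum was 10744, 10542 and 9248, and in the nuclei labelled MTR4-null it was 3982, 2989 and 7929. Every cytoplasm lay above every nucleus, and the nucleus library labelled MTR4-null replicate 3 lay nearest to the cytoplasms. With small structured RNAs left out of the total, the members made up 1.54% to 1.90% of summed FPKM in the WT nuclei and 2.57% to 3.03% in the WT cytoplasms. The same share was 1.63% to 2.50% in the nuclei labelled MTR4-null and 2.44% to 2.77% in the MTR4-null cytoplasms, so the groups of that genotype overlapped.

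Of the 84 members, 81 were above 0 in every library, 78 reached 1 FPKM in every library and 75 reached 10 FPKM in all 6 cytoplasms. Rpl41, whose product is the shortest ribosomal protein, had the highest level, at 1109.8, 915 and 866 FPKM across the WT cytoplasms. Rpl35, a protein at the exit of the peptide tunnel, followed at 802, 732 and 655 FPKM, and then came Rpl7a, the stalk protein Rplp1 and the small subunit protein Rps2 with means of 346, 337 and 327 FPKM. Rplp1 did not differ from Rpl7a or from Rps2 beyond its spread, since its range over the 3 libraries overlapped both of theirs. The 5 highest members of a library held 22.5% to 26.9% of the members' sum. FPKM of very short transcripts depends on how fragments of 300 to 400 bases were modelled, and 6 members have transcripts under 400 bases.

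The order of the members was nearly the same in the cytoplasms of both genotypes. Across the 83 members that passed the filter on low values, the mean levels of WT and MTR4-null cytoplasm had a Spearman correlation of 0.969. The correlation was 0.892 between the WT nuclei and those labelled MTR4-null, and 0.893 between WT nucleus and WT cytoplasm. These are descriptions across genes that share their lengths and their sequence copies. The sum over the 52 large subunit genes was 1.45 to 1.84 times that over the 32 small subunit genes in the 12 libraries.

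**Figure D1:**
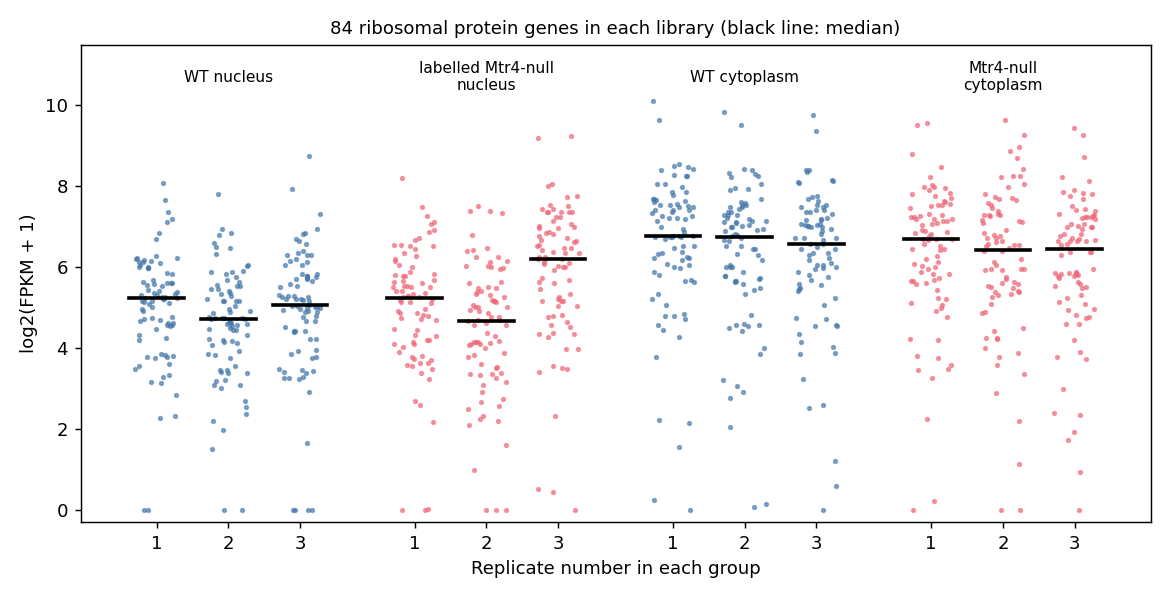
Levels of the ribosomal protein genes, as log2(FPKM + 1), in each of the 12 libraries, with 1 point per gene, the median as a black line and the groups side by side. The summed level was 10350 to 12723 FPKM in the WT cytoplasms and 2864 to 3970 FPKM in the WT nuclei, and the nucleus library labelled MTR4-null replicate 3 (7929 FPKM) lies above the other 5 nuclei.

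Among the members with the lowest levels were Rps27 and Rpl30, and each has a near copy among the entries of the table. Rps27, a small subunit protein with a zinc finger, was at 0.179, 0.118 and 0.504 FPKM across the WT cytoplasms. Its near copy Gm9846, annotated as the protein-coding gene Rps27rt and sharing 98.6% of the 50-base words of Rps27, was at 193, 174 and 175 FPKM there. In the WT nuclei, Rps27 was at 7.79, 10.9 and 8.56 FPKM and Gm9846 at 116, 42.9 and 62.1 FPKM. Rps27 was thus higher in every WT nucleus than in any WT cytoplasm, while Gm9846 was lower, and the sources used here do not say how reads that fit both were assigned.

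Rpl26, Rpl30 and Rpl34, all of the large subunit, stood in the same relation to another entry. Rpl26 was at 0.00444, 0.00309 and 0.00252 FPKM across the WT nuclei and at 3.65, 7.44 and 5.08 FPKM across the WT cytoplasms, while Gm15772, which shares 60.6% of its 50-base words, was at 46.3, 43.4 and 70.8 FPKM and at 237, 227 and 215 FPKM. Rpl30 was at 1.93, 3.14 and 1.30 FPKM across the WT cytoplasms, while Gm12191 (47.8% of words) was at 82.4, 95.4 and 64.3 FPKM. In all 6 of these libraries, the copy of Rpl26 was far above Rpl26 itself, and the copy of Rpl30 was far above Rpl30 in the 3 cytoplasms.

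Rpl34 showed how unevenly a pair can be divided. It was at 91.3, 8.23 and 26.0 FPKM across the WT cytoplasms and at 10.9, 157 and 4.07 FPKM across the MTR4-null cytoplasms. Rpl34-ps1, which shares 50.6% of its 50-base words, was at 112, 185 and 128 FPKM and at 237, 19.8 and 190.4 FPKM in the same libraries. The 2 cytoplasms with the highest Rpl34 had the lowest Rpl34-ps1. The sum of both entries was 203, 193 and 154 FPKM across WT and 248, 177 and 194 FPKM across MTR4-null cytoplasms, a much narrower range than that of either entry.

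**Figure D2:**
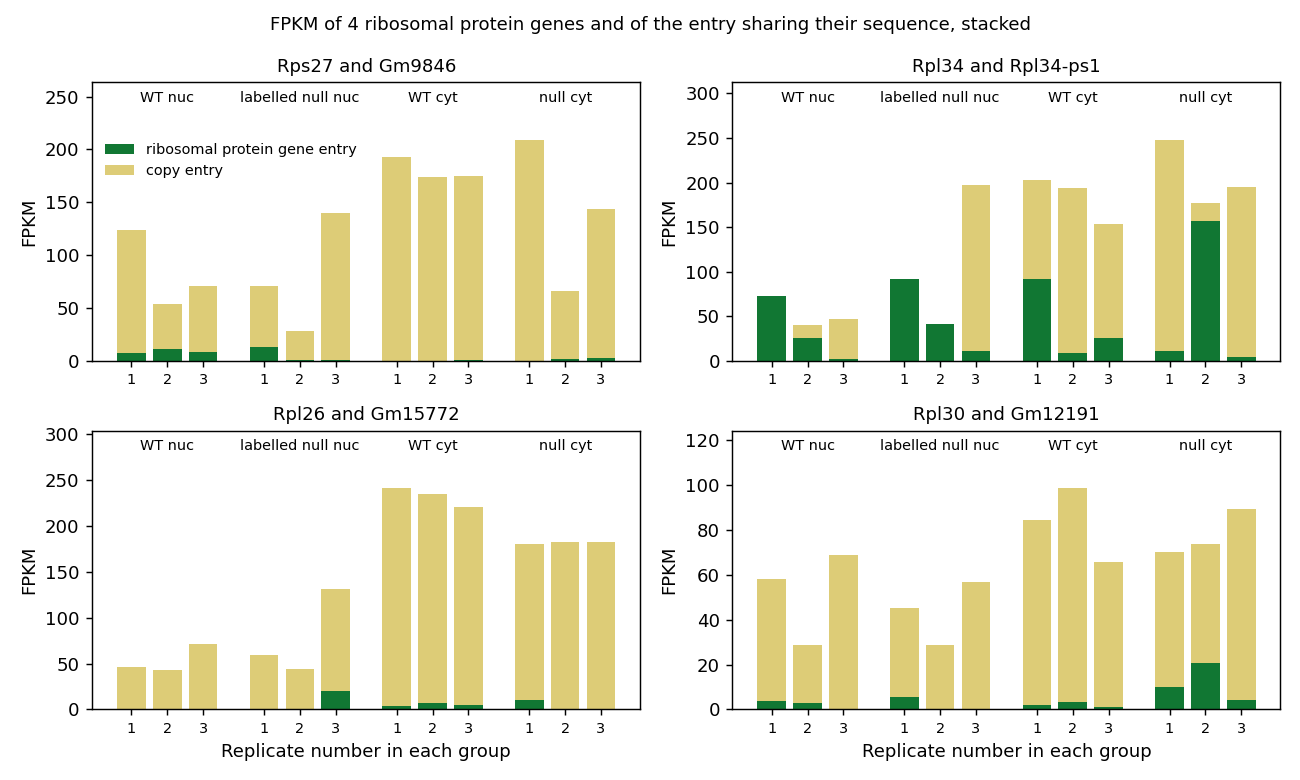
FPKM of Rps27, Rpl34, Rpl26 and Rpl30 (green) with the entry that shares their sequence (sand) stacked on top, for each replicate of the 4 groups. The copies hold most of the stacked height in most libraries, and the share held by Rpl34 differs widely between replicates of 1 group.

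These 4 were the members whose copy had the higher mean level. In all, 77 of the 84 members share at least 10% of their 50-base words with another gene annotated in GENCODE vM21, and for 19 of them such a gene is an entry of the table (22 entries). The share of words found elsewhere had a median of 58.7% and reached 98.6%, and Rpl21 had the largest number of pseudogenes above that 10% mark, 42. Levels of single members are therefore uncertain wherever the counting could divide reads between copies. FPKM of entries of different lengths are not strictly additive, so the sums of a member and its copy are approximate.

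The first comparison asked how the transcripts of ribosomal proteins are divided between nucleus and cytoplasm in WT oocytes. In the limma fit over all 4 groups, 67 of 83 members were lower in the nucleus and 1, Rps27, was higher (adjusted p under 0.05 over all genes tested). Over all 13157 genes tested, 45% were lower and 12% were higher. The median log2 fold change, nucleus over cytoplasm on the log2(FPKM + 1) scale, was -1.69 for the members and -0.90 for all genes tested. In 75 members the 3 nuclei lay below the 3 cytoplasms without overlap, against 59.4% of all genes tested, and in 1 they lay above, against 14.1%. The 12 theca and stroma markers moved with this comparison in the other direction, with sums of 5.23 to 39.2 FPKM in WT nuclei and 1.24 to 2.24 FPKM in WT cytoplasms, both tested genes (Star and Tagln) higher in the nuclei and a median of 1.23. Their part in the result was not tested.

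Both subunits shared this pattern. Of the large subunit members, 40 of 51 were lower in the nucleus with a median of -1.65, and of the small subunit members 27 of 32 with a median of -1.72. The stalk, the flexible arm of the large subunit that binds translation factors, was lower in all 3 of its members. Rplp0, its base, was at 26.0, 25.5 and 51.6 FPKM across the WT nuclei and at 199, 179 and 178 FPKM across the WT cytoplasms. Its log2 fold change was -2.47 ± 0.41 (SE, limma adjusted p = 0.000553). Rplp1 gave -2.32 ± 0.37 and Rplp2 gave -1.73 ± 0.39.

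Other falls were larger. Rps26, at the mRNA exit channel of the small subunit, was at 37.7, 8.32 and 14.4 FPKM across the WT nuclei and at 148, 126 and 127 FPKM across the WT cytoplasms, a log2 fold change of -2.92 ± 0.55 (SE, limma adjusted p = 0.00112). Rpl32 was at 23.7, 16.9 and 26.3 FPKM against 205, 163 and 133 FPKM, and its change was -2.85 ± 0.48. Rpl36al was at 4.01, 4.86 and 8.41 FPKM against 49.5, 39.5 and 32.4 FPKM, and its change was -2.65 ± 0.35. Nuclei and cytoplasms did not overlap in any of these 3 genes.

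Some members are known for other reasons. Rps19 and Rpl11 are mutated in Diamond-Blackfan anemia, loss of Rps14 underlies the anemia of the 5q- syndrome, and Rpl5 and Rpl11 bind Mdm2 when assembly fails. Rps19 was at 48.2, 3.58 and 13.4 FPKM across the WT nuclei and at 103, 102 and 104 FPKM across the WT cytoplasms, a log2 fold change of -2.81 ± 0.69. Rps14 fell by 2.33, Rpl11 by 1.76 and Rpl5 by 1.71 on the log2 scale. Rps6, the substrate of S6 kinase, fell by 1.36 on that scale.

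In some members the difference between the compartments was small and did not pass the test. Rpl9 was at 48.1, 22.4 and 31.2 FPKM across the WT nuclei and at 26.9, 22.9 and 25.5 FPKM across the WT cytoplasms (0.35 ± 0.48, limma adjusted p = 0.534). Rpl21 was at 25.05, 13.2 and 22.0 FPKM against 32.6, 27.0 and 22.5 FPKM. Both genes overlapped between the compartments. Rpl29, Rps15a, Rpl23 and Rps25 had log2 fold changes between -0.74 and -0.58. In Rpl29, Rps15a and Rpl23 every WT nucleus still lay below every WT cytoplasm, while Rps25 overlapped. Among the paralogs, Rpl22l1 and Rpl10l had 0.19 and -0.00, and both overlapped. These genes were named after their values had been seen.

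The scale matters for this comparison, because small structured RNAs take most of the summed FPKM of a nuclear library. Their share of the reads is not known. Under median-of-ratios scaling the median over all genes was 0.00, and 25 members were lower and 2 higher, with 9.86% and 19.3% of all genes. With each library scaled to its sum without small structured RNAs, 23 members were lower and 2 higher, with 8.97% and 17.3% of all genes. Under quantile normalization 14 were lower and 3 higher, with 12.2% and 12.6% of all genes. The members' median lay below that of all genes by 0.80 in FPKM, by 0.59 and 0.61 under the first pair of scalings, and by 0.10 under quantile normalization.

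Under all 4 scalings, 13 members were lower in the WT nucleus. The share of all genes lower under all 4 was not counted, so this number is not set against it. The 13 included Rpl8, Rpl14, Rpl32, Rpl35, Rpl36al, Rplp0 and Rplp1 of the large subunit and Rps4x, Rps14, Rps16, Rps20 and Rps26 of the small subunit. For Rpl32 the log2 fold change was -2.85 in FPKM, -1.75 under median-of-ratios scaling and -1.51 under quantile normalization. Rpl36al gave -2.65, -1.62 and -1.74 in the same order. Rps27 was higher under all 4, while Rpl9 was higher under 3 of them, by 1.44 under median-of-ratios scaling.

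With the members summed with their copy entries, 68 members were lower in the WT nucleus and 0 were higher. Without summing, 67 were lower and 1 higher, with 45% and 12% of all genes. The sum of Rps27 and Gm9846 was 124, 53.7 and 70.7 FPKM across the WT nuclei and 193, 174 and 175 FPKM across the WT cytoplasms. All 3 nuclei lay below the cytoplasms, opposite to Rps27 taken alone (2.99 ± 0.66, limma adjusted p = 0.00245). The summed log2 fold change was -1.20, with an adjusted p of 0.0638 in the limma fit over 4 groups and 0.0071 in the fit of the 6 WT libraries. The sum for Rpl34 gave -1.80 (adjusted p = 0.0049), where Rpl34 alone had given -0.62 (adjusted p = 0.686).

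**Figure D3:**
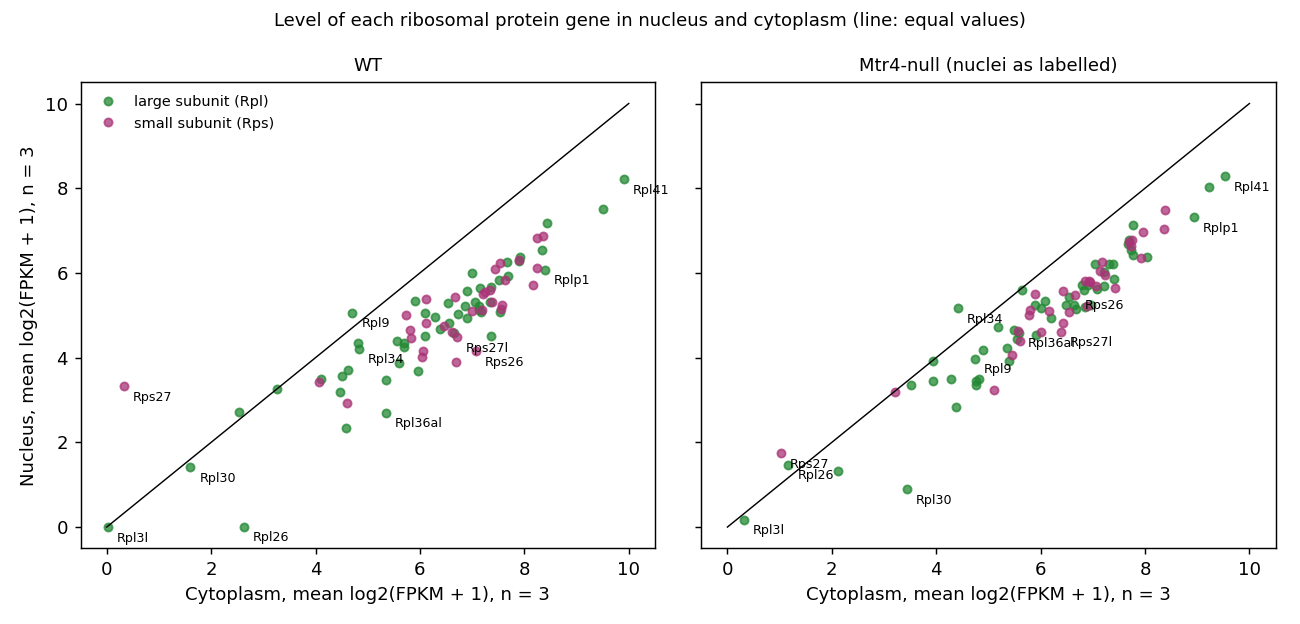
Mean log2(FPKM + 1) of each ribosomal protein gene in the nucleus against the cytoplasm, by genotype. Most points lie below the line of equal level, with medians of -1.69 in WT and -1.12 in MTR4-null, and Rps27 lies above it in WT.

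In MTR4-null oocytes the same comparison gave 45 lower members and 0 higher ones, with 28.1% and 4.08% of all genes tested. Taken at an unadjusted p under 0.05, the limma fit had 62 lower and 0 higher. The share of all genes at an unadjusted p was not counted, here or below. The median was -1.12 for the members and -0.82 for all genes, and nuclei lay below cytoplasms without overlap in 41 members, against 35.8% of all genes, and above them in 0, against 5.95%. The largest falls on the log2 scale were in Rpl30 (-2.54), Rps3 (-1.88), Rps27l (-1.78), Rps16 (-1.77) and Rpl32 (-1.71), and the sum of Rpl30 with its copy gave -0.87 with an adjusted p of 0.0705. Rpl37 was at 50.8, 48.5 and 43.0 FPKM across the nuclei labelled MTR4-null and at 63.1, 33.1 and 55.7 FPKM across the MTR4-null cytoplasms, which overlapped (-0.05 ± 0.33, limma adjusted p = 0.914).

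This count depended on which libraries were in the fit. In a limma fit of the 6 MTR4-null libraries alone 0 members were called in either direction, with 0.0912% of all genes lower and 0.844% higher. Without the nucleus library labelled MTR4-null replicate 3, 70 members were lower, and without the one labelled replicate 1 or replicate 2, 1 and 5 were. Leaving out any 1 of the MTR4-null cytoplasms gave 0, and any 1 of the WT cytoplasms gave 2. The shares of all genes in these fits are not given here. Over the 12 fits that each left out 1 library, the median was -1.52 to -0.86 for the members. For all genes tested it was -1.13 to -0.55, so it moved as well. Without both replicate 1 and replicate 3, a single nucleus remained, which was assumed to vary like the other groups, and 68 members were lower beside 61.5% of all genes. Under median-of-ratios scaling 1 member was lower, under quantile normalization 2, and with the sum without small structured RNAs 0. The shares of all genes lower were 0.258%, 0.593% and 0.213% in the same order.

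The second question was whether loss of MTR4 changed the ribosomal protein transcripts in the cytoplasm. Rpl37, a large subunit protein with a zinc finger, was the member that passed the test in the 4-group fit. It was at 169, 138 and 126 FPKM across the WT cytoplasms and at 63.1, 33.1 and 55.7 FPKM across the MTR4-null cytoplasms. The MTR4-null cytoplasms lay below all WT cytoplasms, and their mean was 35.1% of the WT mean. The log2 fold change was -1.53 ± 0.33 (SE, limma adjusted p = 0.0253), with 0.714% of all genes tested lower and 1.17% higher.

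In the nuclei Rpl37 did not show this difference. It was at 34.0, 23.7 and 44.3 FPKM across the WT nuclei and at 50.8, 48.5 and 43.0 FPKM across those labelled MTR4-null, which overlapped (0.51 ± 0.33, limma adjusted p = 0.448). The difference between the 2 genotype effects was 2.04 ± 0.46 with a limma adjusted p of 0.0771, so it did not pass. Without the nucleus library labelled MTR4-null replicate 3 it was 2.11 (limma adjusted p = 0.0313). Without replicates 1 and 3, which left only 1 nucleus labelled MTR4-null, it was 2.07. The cytoplasmic call for Rpl37 was lost when any 1 of the 6 cytoplasms was left out, with log2 fold changes of -1.71 to -1.26 and adjusted p of 0.0626 to 0.153. Rpl37 shares 31.3% of its 50-base words with Rpl37rt, a name that is not among the entries of the table.

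Over all 83 members tested, Rpl37 included, the median was -0.23, against 0 for all genes tested, with 62 members below 0 and 21 above. Of all genes tested, 6511 were below 0 and 6535 above. Under quantile normalization the medians were -0.13 for the members and -0.02 for all genes, with 52 members below 0. In 17 members the 3 MTR4-null cytoplasms lay below the 3 WT cytoplasms without overlap, against 20.9% of all genes, and in 3 they lay above, against 23%. In the 4-group limma fit 0 members were higher, and 2 were at an unadjusted p under 0.05. The largest value upward was that of Rpl30, at 1.93, 3.14 and 1.30 FPKM across WT and at 10.1, 20.5 and 4.30 FPKM across MTR4-null cytoplasms. These did not overlap, but the log2 fold change of 1.83 ± 0.73 did not pass (limma adjusted p = 0.275), and the sum of Rpl30 with its copy Gm12191 gave -0.08. Rpl26 had -1.47 ± 1.01 (limma adjusted p = 0.681), and its sum with Gm15772 gave -0.35. The large subunit had a median of -0.22 and the small subunit of -0.24. Among the highest members, Rpl41 was at 728, 798 and 691 FPKM across MTR4-null cytoplasms, below all 3 WT values, with -0.38 ± 0.44 (limma adjusted p = 0.888).

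A limma fit of the 6 cytoplasms alone, whose spread is smaller than that of the nuclei, called 7 of 83 members lower and 0 higher, with 9.85% and 13.3% of all genes, so the members' share was not above that of all genes in either direction. Beside Rpl37 (adjusted p = 0.0118) they were Rpl21, Rps15a, Rpl7a, Rpl27a, Rpl3 and Rplp0, and Rpl21, Rps15a, Rpl27a and Rpl3 were named after their values had been seen. Rps15a, of the small subunit, was at 18.4, 15.1 and 13.8 FPKM across WT and at 8.55, 9.31 and 6.92 FPKM across MTR4-null cytoplasms (-0.86 ± 0.16, limma adjusted p = 0.0174). Rpl21, of the large subunit, was at 32.6, 27.0 and 22.5 FPKM against 17.7, 12.7 and 12.8 FPKM (-0.88 ± 0.19, limma adjusted p = 0.024). In both genes every MTR4-null cytoplasm lay below every WT cytoplasm.

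The other 4 changes were smaller. Rpl7a was at 354, 343 and 339.8 FPKM across WT and at 259.5, 186 and 215 FPKM across MTR4-null cytoplasms (-0.66 ± 0.14, limma adjusted p = 0.0215). Rpl27a fell by 0.55 (adjusted p = 0.0497), Rpl3, which reaches toward the peptidyl transferase centre, by 0.51 (adjusted p = 0.0374) and Rplp0 by 0.33 (adjusted p = 0.0369) on the log2 scale. Rplp0 was at 199, 179 and 178 FPKM across WT and at 151, 142 and 149 FPKM across MTR4-null cytoplasms, and the groups did not overlap in any of these 4. The count of 7 ranged from 0, without WT cytoplasm replicate 2, to 13, without MTR4-null cytoplasm replicate 1. It was 1 and 3 without WT cytoplasm replicates 1 and 3, and 6 and 2 without MTR4-null cytoplasm replicates 2 and 3. MTR4-null cytoplasm replicate 2 stood apart, with Spearman correlations over the members of 0.883 and 0.885 with its group, where the other two had 0.976. The summed granulosa cell markers were also lower in the MTR4-null cytoplasms, and their part in these differences was not tested.

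The 24 members listed as hosts of snoRNAs in their introns had a median log2 fold change of -0.30 in the cytoplasm and the other 59 members tested had -0.21, in the fit over 4 groups. The difference was not tested.

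The start sites of these genes can be read beside the values. RefSeq gives the surroundings of the start for 63 members, in the build GRCm38.p6. A run of at least 5 pyrimidines (letters C and T only) on the transcribed strand, touching the 5 bases on either side of the annotated start, was present in 35 of them (55.6%) and in 35.1% of 26962 other genes. A run of at least 8 was present in 38.1% and 10.9%. Purine runs of 5 or more in the same place, which are pyrimidine runs of the other strand, were present in 19.0% and 37.4%. Shown are 40 bases around the start for the 5 of these 7 genes that the table holds, with the start at base 21 and the pyrimidine run in capitals, as examples with and without such a run among genes described above.
Rpl7a: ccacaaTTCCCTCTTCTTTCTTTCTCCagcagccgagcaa
Rpl27a: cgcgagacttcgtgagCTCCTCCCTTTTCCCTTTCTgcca
Rps15a: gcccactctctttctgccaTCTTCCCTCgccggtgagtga
Rpl37: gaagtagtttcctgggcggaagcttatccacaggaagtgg
Rplp0: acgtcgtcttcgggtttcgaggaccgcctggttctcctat

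They lie at chr2:26910787-26910826 (Rpl7a, plus strand), chr7:109519175-109519214 (Rpl27a, plus), chr7:118116128-118116167 (Rps15a, minus), chr15:5116593-5116632 (Rpl37, plus) and chr5:115559447-115559486 (Rplp0, plus). The runs are 21, 20 and 9 bases long in Rpl7a, Rpl27a and Rps15a. In Rpl37 and Rplp0 these windows hold no such run at the annotated start. The gene start in GENCODE vM21 lies outside the window shown for Rpl37 (chr15:5116645), Rpl7a, Rpl27a and Rps15a. The annotated start need not be the one that oocytes use.

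**Figure D4:**
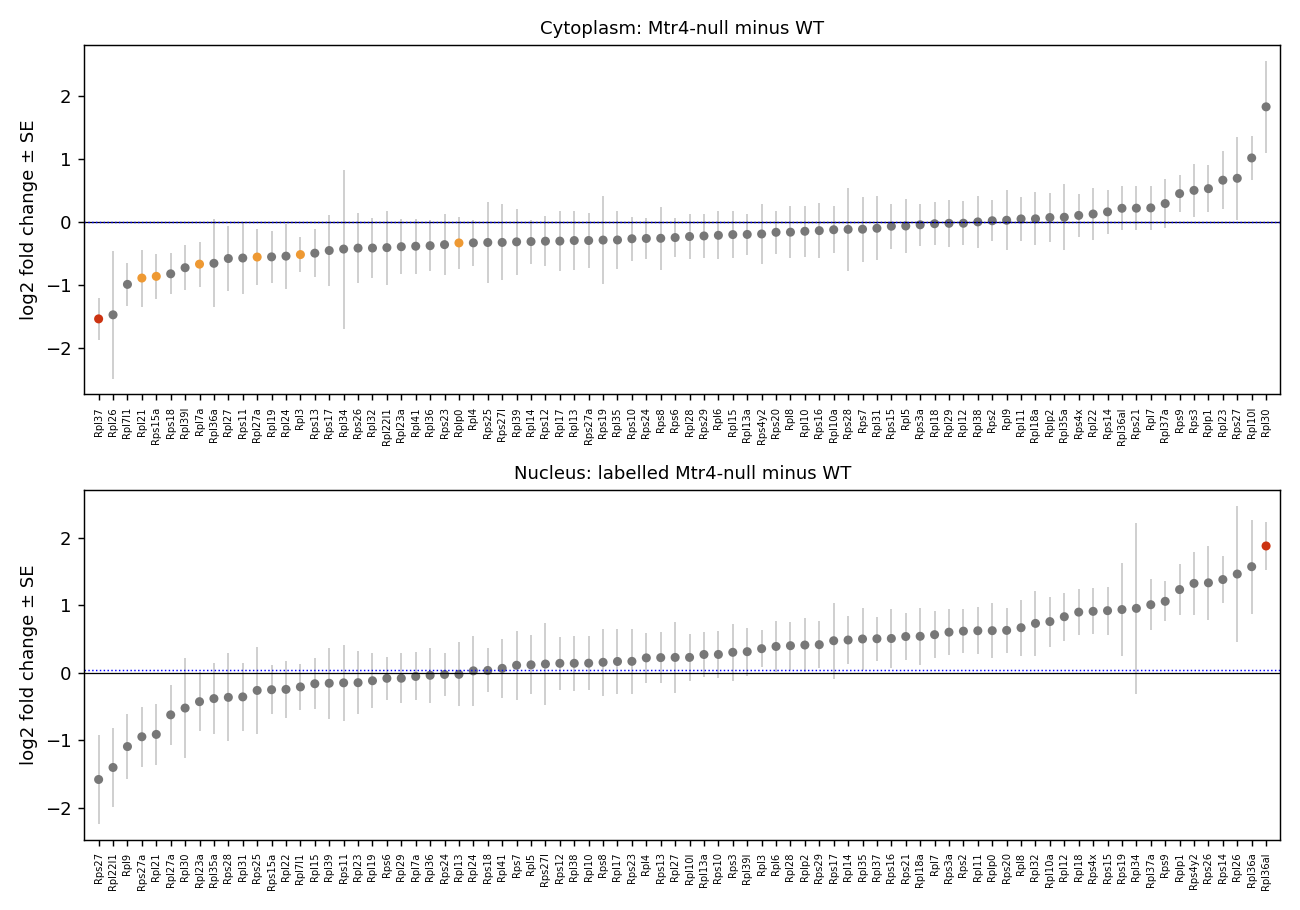
Log2 fold change of MTR4-null over WT for the ribosomal protein genes tested, 1 of them left out, in nucleus and cytoplasm, with SE bars and the median of all genes tested as a dotted blue line. Red marks the members called in the fit over 4 groups (Rpl36al in the nucleus, Rpl37 in the cytoplasm), orange those called in the fit of the 6 cytoplasms alone, and grey the rest.

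The nuclei labelled MTR4-null differed widely among themselves. Of 83 members, 73 were highest in the library labelled replicate 3 and 57 were lowest in replicate 2. The median SD of the members on the log2(FPKM + 1) scale was 0.89 in these nuclei, 0.35 in the WT nuclei, 0.17 in the WT cytoplasms and 0.31 in the MTR4-null cytoplasms. The 4-group limma fit called 1 member higher and 0 lower, with 0.517% and 1.75% of all genes. At an unadjusted p under 0.05 it had 12 higher and 4 lower. The median was 0.23 for the members and 0.04 for all genes tested. Under quantile normalization these were 0.07 and 0.02.

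The member called was Rpl36al, which takes the same place in the large subunit as Rpl36a. It shares 63.3% of its 50-base words with other genes, among them Rpl36a-ps3 and the overlapping protein-coding gene Gm49383. How reads that fit several of these were assigned is not known. Rpl36al was at 4.01, 4.86 and 8.41 FPKM across the WT nuclei and at 17.4, 19.8 and 35.0 FPKM across the nuclei labelled MTR4-null. Every library labelled MTR4-null lay above every WT nucleus, and the log2 fold change was 1.88 ± 0.35 (SE, limma adjusted p = 0.0139). In the cytoplasm it was at 49.5, 39.5 and 32.4 FPKM across WT and at 56.2, 41.6 and 43.7 FPKM across MTR4-null, which overlapped (0.22 ± 0.35). The difference between these effects was 1.66 ± 0.50 with a limma adjusted p of 0.209. The call was lost in a limma fit of the 6 nuclei alone (adjusted p = 0.38, with 0.0152% of all genes higher and 0.0228% lower). It was also lost with array weights (limma adjusted p = 0.0804) and without WT nucleus replicate 1 (limma adjusted p = 0.111). Without the libraries labelled replicates 1 and 3, only 1 nucleus labelled MTR4-null remained, and the log2 fold change was 1.68.

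Rpl36a was at 8.80, 12.5 and 0 FPKM across the WT nuclei and at 13.9, 13.8 and 14.7 FPKM across the nuclei labelled MTR4-null. The log2 fold change of 1.57 ± 0.70 did not pass (limma adjusted p = 0.246), and without WT nucleus replicate 3, where Rpl36a is listed at 0, it was 0.40 (adjusted p = 0.691). In the cytoplasms, Rpl36a was at 36.5, 21.6 and 15.4 FPKM across WT and at 17.5, 13.7 and 12.2 FPKM across MTR4-null, which overlapped. Rpl36a shares 85.5% of its 50-base words with other genes.

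Other members stood high in the nuclei labelled MTR4-null without passing the test. Rps14 was at 41.5, 34.9 and 34.6 FPKM across WT and at 70.6, 87.5 and 151 FPKM across those libraries (1.38 ± 0.35, limma adjusted p = 0.0505). Rps9 was at 22.6, 26.4 and 29.0 FPKM against 45.7, 61.0 and 60.0 FPKM (1.06 ± 0.29, limma adjusted p = 0.0683). Rplp1 was at 76.0, 55.8 and 69.8 FPKM against 91.9, 162 and 265 FPKM (1.24 ± 0.37, limma adjusted p = 0.0888). In all 3 genes the groups did not overlap. Such separation upward was seen in 12 members, against 6.22% of all genes, and downward in 0, against 6.7%.

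The lowest log2 fold changes in the nucleus were those of Rps27 (-1.58), Rpl22l1 (-1.40) and Rpl9 (-1.09), none of which passed. With only the library labelled replicate 2 left in that group, the members' median was -0.39 and that of all genes -0.49. In that fit 4 members were higher and 20 lower, with 5.1% and 25.6% of all genes. The sign of the members' median in the nucleus thus differed with the libraries kept, and so did that of all genes. The members' median lay above that of all genes with every library kept (0.23 against 0.04) and in that fit (-0.39 against -0.49). The sign of Rpl36al did not change in any setting tried.

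The difference between the genotype effects in nucleus and cytoplasm, tested as an interaction, gave 0 members in either direction, with 0.0228% of all genes higher and 0.0988% lower. At an unadjusted p under 0.05 the limma fit had 7 members higher and 2 lower. The median was 0.55 for the members and 0.06 for all genes. Above 0 were 67 of 83 members and 7032 of 13157 genes tested. Under quantile normalization the medians were 0.10 for the members and 0.055 for all genes, with 50 members above 0. Leaving out 1 library at a time gave a members' median of 0.16 to 0.88. With array weights 1 member was higher.

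Ribosomal proteins with a paralog among the members were looked at pair by pair. Rps27l was at 107, 109.8 and 94.1 FPKM across the WT cytoplasms, far above the 0.179, 0.118 and 0.504 FPKM listed for Rps27, and below the summed level of Rps27 and Gm9846 (193, 174 and 175 FPKM). It was at 11.3, 29.3 and 28.7 FPKM across the WT nuclei (-2.23 ± 0.60, limma adjusted p = 0.00706). Rpl36al was above Rpl36a in all 6 cytoplasms, with WT means of 40.5 ± 8.57 and 24.5 ± 10.8 FPKM (SD, n = 3).

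The other paralogs were below their parents. Rpl39l, known from the testis, was at 50.8, 49.4 and 43.4 FPKM across the WT cytoplasms, where Rpl39 was at 362, 340.3 and 277 FPKM. In MTR4-null cytoplasms Rpl39l was at 42.3, 18.2 and 30.4 FPKM, each below the WT values (-0.72 ± 0.36, limma adjusted p = 0.439). Rpl10l, an intronless testis gene, was at 12.7, 5.87 and 8.42 FPKM across WT and at 13.0, 28.0 and 17.4 FPKM across MTR4-null cytoplasms (1.02 ± 0.35, limma adjusted p = 0.175). MTR4-null cytoplasms lay above WT ones for Rpl10l, whose parent Rpl10 was at 253, 249 and 217 FPKM across WT.

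Rpl7l1, a relative of Rpl7, was at 26.9, 22.3 and 16.9 FPKM across WT and at 12.5, 6.41 and 14.1 FPKM across MTR4-null cytoplasms (-0.98 ± 0.34, limma adjusted p = 0.181). Rpl22l1 was at 3.46, 6.49 and 4.72 FPKM across the WT cytoplasms, below Rpl22 at 25.4, 22.8 and 22.7 FPKM. Rpl3l, the muscle paralog of Rpl3, was listed at 0 in 9 libraries and reached at most 0.911 FPKM, and it is the 1 member that failed the filter. The entry Rps4y2, now named Rps4l and annotated as a transcribed processed pseudogene, was at 82.4, 48.9 and 71.3 FPKM across the WT cytoplasms beside 344, 297 and 269.9 FPKM for Rps4x, and reads of the 2 may be mixed.

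**Figure D5:**
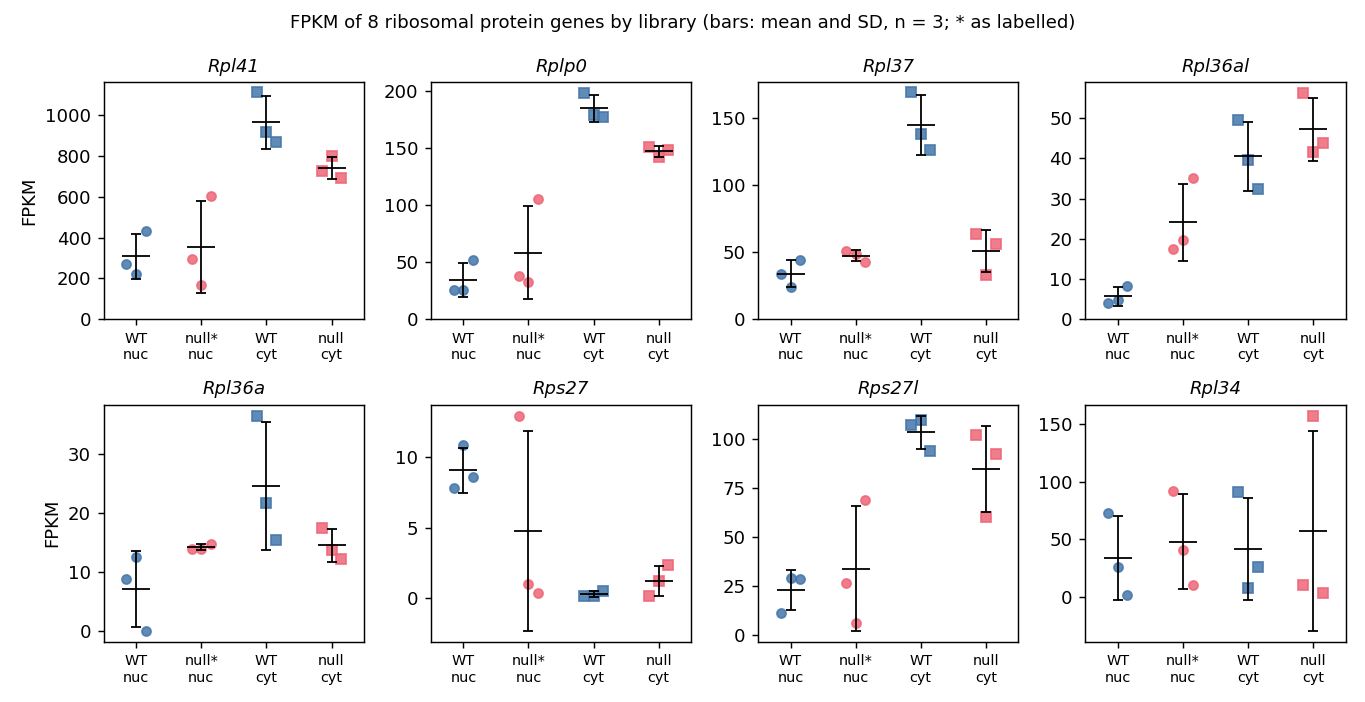
FPKM of Rpl41, Rplp0, Rpl37, Rpl36al, Rpl36a, Rps27, Rps27l and Rpl34 in each library, with circles for nuclei, squares for cytoplasms, blue for WT and red for MTR4-null, and bars for the mean and SD (n = 3). Rpl37 is at 126 to 169 FPKM in WT cytoplasms and 33.1 to 63.1 FPKM in MTR4-null ones, and Rpl36al is at 4.01 to 8.41 FPKM in WT nuclei and 17.4 to 35.0 FPKM in the nuclei labelled MTR4-null.

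Related genes were compared between WT nucleus and cytoplasm in the same FPKM fit, where 45% of all genes were lower with a median of -0.90. The lists were not tested against each other or rescaled. Fau, Rpsa and Gnb2l1, cytosolic ribosomal genes with other names, were lower in the WT nucleus, with log2 fold changes of -2.19, -2.12 and -1.71. Of 20 other 5' TOP genes tested, 16 were lower and 2 higher (the snoRNA host RNAs Gas5 and Snhg1), with a median of -1.69, led by the nascent chain binding factors Btf3 (-2.77) and Naca (-2.32) and the elongation factor Eef1a1 (-2.25). Of 30 translation initiation factors, 28 were lower and 0 higher (limma, adjusted p under 0.05 over all genes), all 30 were below 0, and the median was -1.80. Mitochondrial ribosomal proteins, which serve another ribosome, had 55 of 76 lower and 1, Mrpl27, higher, with a median of -1.55. Of 15 genes that regulate 5' TOP mRNAs or belong to mTORC1 signalling, 7 were lower and the median was -0.77, closer to 0 than that of all genes.

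Factors of ribosome assembly and the nucleolus had 50 of 74 lower and 2 higher (Taf1d and Mdn1), with a median of -1.28. Nhp2, a core protein of H/ACA snoRNPs, fell by 3.12 on the log2 scale, while Taf1d, a subunit of the RNA polymerase I factor SL1 whose introns host snoRNAs, was higher by 2.2. Between genotypes, 3 genes of these lists passed in the 4-group fit. Dkc1, the pseudouridine synthase of H/ACA snoRNPs, fell by 1.22 in the MTR4-null cytoplasm (limma adjusted p = 0.049), and Taf1d fell by 1.62 in the nuclei labelled MTR4-null (limma adjusted p = 0.0356). Mrps23, of the mitochondrial ribosome, was higher by 1.43 in those nuclei (limma adjusted p = 0.037). In the fit of the 6 cytoplasms alone, 5 of the 30 initiation factors were lower and 1 higher with a median of -0.23. Of the 76 mitochondrial ribosomal proteins 7 were higher and 3 lower with a median of -0.03, and of the 74 assembly and nucleolar factors 5 were higher and 10 lower with a median of -0.14.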

How the data were processed

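Per the labels' protocols, each of the 12 day-14 libraries was made from TRIzol-extracted total RNA of 10 oocyte nuclei or cytoplasms after rRNA removal, with 150 bp paired reads. The deposited table holds FPKM made by the authors, with TopHat2 2.1.1, Cufflinks 2.2.1 and the build mm9 per the submitters' processing notes. Annotation, strand setting and the treatment of reads that fit several places: not given in the sources used here. Absolute depth is unknown. No pair of libraries was identical.

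Tested were the 13157 genes that reached 1 FPKM in 3 or more libraries, on log2(FPKM + 1), which understates changes of low genes, with limma 3.58.1 (trend, R 4.3.3). A single fit held the 4 groups and 5 comparisons, with two-sided p-values adjusted by Benjamini and Hochberg over all genes tested. The procedure was run on simulated data with changes placed in the MTR4-null cytoplasm and read in the cytoplasm comparison only. The other comparisons were not covered, and the outcome is not given here. Members and lists were chosen with earlier results of these data known. Named were the largest changes per comparison (up to 8 each way, or 3 where fewer passed), the paralogs, the 5 highest and 3 lowest members, 8 genes of known role, and up to 4 genes per related list. Words of 50 bases were compared among GENCODE vM21 transcripts. The mm9 genome was not used here. Some single genes are not reported here.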

Additional observations from a re-analysis of the deposited data

How the results depend on the processing

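Depth limits the nuclei most. Each alternative named here changed 1 choice, those for the fit of the 6 cytoplasms and for summed copies were chosen after seeing the data, and the cause of each change was not tested.

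Numbers of members called moved as follows. The counts in this section are given without the share of all genes under the same setting, so a move need not be particular to the members. Without the libraries labelled MTR4-null nucleus replicates 1 and 3, only 1 nucleus remained in that group. Counts from that setting rest on the spread of the other groups. In the nucleus, 1 higher became 0 in a fit of its own 6 libraries and with array weights, 3 with no filter, with the sum without small structured RNAs and with quantile normalization, and 4 with median-of-ratios scaling and without the libraries labelled MTR4-null nucleus replicates 1 and 3; 0 lower became 4, 4 and 20 with median-of-ratios scaling, quantile normalization and without those libraries. In the cytoplasm, 1 lower became 7 in its own fit, 0 with quantile normalization, 11 with array weights (6 higher) and 3 without those libraries. For WT nucleus against cytoplasm, 67 lower became 25, 23 and 14 and 1 higher became 2, 2 and 3 with median-of-ratios scaling, the sum without small structured RNAs and quantile normalization, and 0 higher remained with copies summed. For MTR4-null nucleus against cytoplasm, 45 lower became 0 in its own fit, 11 with no filter, 1, 0 and 2 with those scalings in that order and 68 without those libraries, and 0 higher became 1 with array weights. The interaction had 1 higher with array weights and, without those libraries, 1 higher and 6 lower. The fit of the 6 cytoplasms had 4 lower with no filter, with quantile normalization and with the replicate block, and 1 higher with each of the last 2.

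Leaving out 1 library at a time gave 0 to 6 higher and 0 to 1 lower in the nucleus, 0 to 0 higher and 0 to 1 lower in the cytoplasm, 1 to 1 higher and 56 to 72 lower for WT nucleus against cytoplasm, 0 to 0 higher and 0 to 70 lower for MTR4-null nucleus against cytoplasm, 0 to 1 each way for the interaction, and 0 to 1 higher and 0 to 13 lower in the fit of the 6 cytoplasms. The count of 45 fell to 0 without any 1 of the MTR4-null cytoplasms and to 2 without any 1 of the WT cytoplasms.

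Signs turned for Rps27l (-1.57), Rps7 (-0.99) and Rpl5 (-0.95) in the nucleus without those libraries, for Rpl7l1 in WT nucleus against cytoplasm (0.11, 0.019 and 0.10 with the 3 scalings), for Rps2 in MTR4-null nucleus against cytoplasm (0.031, median-of-ratios), and with copies summed for Rps27 (-1.20, WT) and Rpl26 (-1.36, MTR4-null). Of 1911 values of named genes under alternatives other than leaving out 1 library, 1677 kept their side of the threshold, and of these 130 without a call changed sign; 150 lost and 75 gained a call and 9 were reversed.

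Libraries with the same replicate number did not deviate together (correlations of -0.16 to 0.30 over 18 pairs, 3 above 0.1). With the replicate block, 1 higher and 0 lower were called in the nucleus, 0 and 1 in the cytoplasm, 1 and 68 for WT nucleus against cytoplasm, 0 and 55 for MTR4-null nucleus against cytoplasm, and 0 and 0 in the interaction.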
